A study of Mus musculus with 18 samples.

Results

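Sodium, calcium and HCN channel subunits were represented by 36 genes of the 17274 named on the array, and by 71 of its 28482 probes that carry 1 gene name. Members were all genes whose platform symbol begins with Scn and a digit or with Cacn, together with the numbered Hcn genes listed, and each was read from the probe with the highest mean intensity over all 18 arrays. Each array held RNA of 1 of 2 brain regions, the ventral tegmental area (VTA) or the nucleus accumbens (NAc), of male C57BL/6J mice aged 10.5 weeks, an inbred strain with no transgene named in the labels. The control mice had not been defeated, while the susceptible and the unsusceptible mice had gone through social defeat, in which an intruder mouse is repeatedly beaten by an aggressor, and were classed by the authors, whose design text speaks of avoidance scores. Each of the 6 combinations of structure and behaviour group had 3 arrays, and each array carried tissue pooled from 4 animals. The p-values therefore measure the spread between pools, and in pooled tissue fewer cells of a type and less RNA per cell cannot be told apart.

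These genes encode the machinery that turns synaptic input into spikes. Sodium channel α subunits form the pore that drives the action potential, and the β subunits are small membrane proteins that steer their gating and placement. Calcium channel α1 subunits form pores of several kinds: the L type and the P/Q, N and R types open at strong depolarisation, and the T type opens near rest and supports bursts. The intracellular β and the extracellular α2δ subunits bring calcium channels to the membrane. The γ genes form a mixed family, in which several members, the TARPs, are AMPA receptor auxiliaries instead of channel parts. HCN channels open on hyperpolarisation and pass the Ih current, a pacemaker current that is used to recognise dopamine neurons of the VTA in recordings.

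A level below is the log2 of the quantile-normalised intensity, and a change is a difference of such levels in log2 units. Members with a probe mean below the median probe of the array, 7.39 log2 units, are called dim, since no detection call was used and their signal was not shown to exceed background. These were 9 of the 36, namely Cacna1d, Cacna1e, Cacna1f, Cacna1i, Cacng6, Cacng7, Cacng8, Hcn4 and Scn10a. Levels of different genes come from different probes and were not compared with each other.

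The structure labels were checked against cell markers. All 7 dopamine neuron markers were higher in the VTA, 5 of them without overlap between the pools, and all 6 measured medium spiny neuron markers were lower there without overlap. Array medians ran from 148.3 to 253.1 in intensity before normalisation. VTA unsusceptible pool 3 lay at 26.6 on the first principal component, and the other 8 VTA pools lay between 36.4 and 41.9. In that pool the dopamine markers averaged 10.20 log2 units, against 11.79 to 12.54 in the other VTA pools and 8.25 to 8.49 in the NAc pools. The serotonin markers in it averaged 7.12, against 8.70 to 12.31 in the other VTA pools, and the hypothalamic markers averaged 9.48, against 7.45 to 9.13. The count of members called between the structures and several VTA differences between behaviour groups are given with and without this pool. Changes of single members between the structures are given with all 9 VTA pools.

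Many members differed between the structures, and none passed between behaviour groups. Of the 36 members, 23 passed the threshold of 0.05 (limma, Benjamini-Hochberg over all probes) between 9 VTA and 9 NAc pools, with 9 higher and 14 lower in the VTA. That share of 63.9% stands beside 28.0% of all probes and 40.8% of named genes read by their brightest probe. Among named genes brighter than the median probe the share was 57.7%, and among the 27 brighter members it was 81.5%. Of the 9 dim members, 1 passed. By direction, 22.8% of named genes were called higher and 18.0% were called lower. The median size of change was 0.29 log2 units over the members and 0.11 over all named genes. Without any overlap between the 9 and 9 pools were 13 members, or 36.1%, against 19.0% of named genes.

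The members that were higher in the VTA were Cacna1g, Scn7a, Scn1a, Hcn3, Hcn2, Cacng2, Cacng5, Cacna2d2 and Scn11a. Those lower in the VTA were Cacna2d3, Cacng3, Cacna1h, Cacnb4, Cacna1c, Cacng4, Cacnb1, Scn2a, Scn4b, Cacna2d1, Scn3b, Cacna1d, Cacnb2 and Scn2b. The direction was the same in control, susceptible and unsusceptible mice for 22 of the 23. The exception was Cacna2d1, whose VTA minus NAc change was -0.63 in control, -0.53 in susceptible and 0.11 in unsusceptible mice. Since members were called on the mean of these same group differences, the shared direction is no separate support. In unsusceptible mice some changes were small, such as -0.04 for Scn2b and 0.09 for Scn11a.

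**Figure D1:**
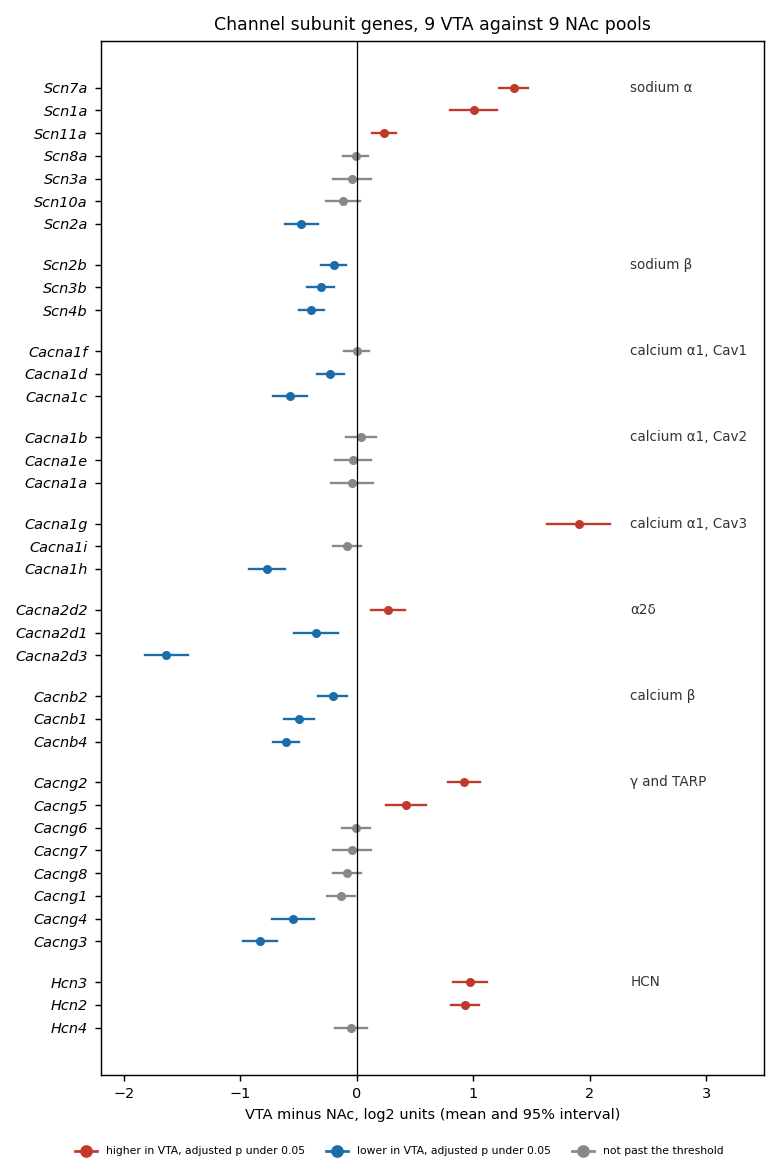
Difference between VTA and NAc for each of the 36 members in log2 units, as the mean over 9 against 9 pools with its 95% interval, grouped by subunit family. The 9 members in red lie to the right of 0 and the 14 in blue to the left, from 1.90 for Cacna1g to -1.63 for Cacna2d3.

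Promoter windows are shown for 5 members with strong changes between the structures and 1 listed start, 3 of them higher and 2 lower in the VTA. Each window covers the 250 bases before the RefSeq start in GRCm38.p6, written 5′ to 3′ on the strand of the gene. RefSeq gave windows for 28 of the 36 members, and 20 of them had 1 start. Capitals mark matches, on either strand, to the GC box GGGCGG, the CCAAT box CCAAT or the TATA box TATAAA.
Scn7a, chr2:66784911-66785160, minus strand: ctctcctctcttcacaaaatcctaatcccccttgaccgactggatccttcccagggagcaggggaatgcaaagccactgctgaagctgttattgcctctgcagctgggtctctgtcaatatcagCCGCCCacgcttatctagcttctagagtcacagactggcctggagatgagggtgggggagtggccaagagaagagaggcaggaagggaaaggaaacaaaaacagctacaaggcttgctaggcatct
Scn1a, chr2:66440838-66441087, minus strand: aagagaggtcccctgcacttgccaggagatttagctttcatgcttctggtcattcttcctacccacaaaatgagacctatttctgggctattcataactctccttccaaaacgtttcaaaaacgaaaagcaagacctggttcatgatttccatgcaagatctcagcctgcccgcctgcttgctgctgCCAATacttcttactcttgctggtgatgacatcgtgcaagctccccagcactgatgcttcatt
Hcn2, chr10:79716384-79716633, plus strand: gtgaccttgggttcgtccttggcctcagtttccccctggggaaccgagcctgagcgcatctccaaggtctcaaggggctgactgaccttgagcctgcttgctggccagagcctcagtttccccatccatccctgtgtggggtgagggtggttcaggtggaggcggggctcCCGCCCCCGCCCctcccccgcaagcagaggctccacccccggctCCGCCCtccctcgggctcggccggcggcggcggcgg
Cacna2d3, chr14:29721865-29722114, minus strand: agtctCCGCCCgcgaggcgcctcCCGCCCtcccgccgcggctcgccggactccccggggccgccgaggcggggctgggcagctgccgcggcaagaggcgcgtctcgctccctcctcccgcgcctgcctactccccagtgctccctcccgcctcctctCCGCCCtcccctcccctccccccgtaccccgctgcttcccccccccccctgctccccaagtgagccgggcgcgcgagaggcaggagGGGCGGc
Scn4b, chr9:45138374-45138623, plus strand: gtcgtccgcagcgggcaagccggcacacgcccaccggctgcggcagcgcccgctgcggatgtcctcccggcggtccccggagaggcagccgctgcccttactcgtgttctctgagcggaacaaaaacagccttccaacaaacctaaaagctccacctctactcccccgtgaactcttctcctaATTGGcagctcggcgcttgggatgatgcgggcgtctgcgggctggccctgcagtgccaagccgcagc

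The window of Scn7a held 1 GC box at -126 from the start, and that of Scn1a held 1 CCAAT box at -63. Hcn2 had GC boxes at -80, -74 and -36, and Cacna2d3 had GC boxes at -245, -227, -93 and -7. Scn4b had a CCAAT box at -67. None of the 5 windows held TATAAA, the cAMP response element core TGACG, the Nr4a site AAAGGTCA or the RE1 piece TTCAGCACC, also searched on both strands. Over 32851 windows of the same length, 32.7% held a GC box, 33.8% a CCAAT box, 12.4% a TATA box, 17.8% TGACG, 1.34% AAAGGTCA and 0.301% TTCAGCACC. Base composition differed widely among these windows, from 46.8% GC in Scn1a to 80.0% in Cacna2d3. With each member read by its window of highest GC, the median was 62.0% over the 7 VTA-higher members with a window. It was 73.2% over the 11 VTA-lower members. The median over all windows, with no such choice, was 52.4%, so the member medians are not on the same footing as it. These are descriptions of the sequence and carry no test.

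Among sodium channel α genes, 3 of 7 were higher in the VTA, 1 was lower and 3 did not pass. Scn7a encodes Nax, an atypical sodium channel known as a sodium-level sensor in glia and some neurons. Its levels in the NAc pools ran from 7.30 to 7.66 with a median of 7.46, and in the VTA pools from 8.62 to 9.03 with a median of 8.87. Every VTA pool thus lay above every NAc pool, and the change was 1.35 ± 0.06 log2 units (SE, 9 against 9 pools), or 2.54-fold (limma adjusted p = 3.41e-15). The NAc levels of Scn7a lay close to the median probe, 7.39, and were not shown to exceed background. Scn1a, the pore gene best known in fast-spiking inhibitory neurons, read 8.88 to 9.92 in NAc (median 9.56) and 10.22 to 10.96 in VTA (median 10.55). Again no pool overlapped, with a change of 1.00 ± 0.10, or 2.01-fold (adjusted p = 5.83e-09). The widest NAc spread of Scn1a came from the control group, whose pools read 9.56, 9.87 and 8.88.

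Scn2a, which encodes a pore of axon initial segments in excitatory neurons, had the opposite order. Its NAc levels were 10.11 to 10.47 (median 10.25) and its VTA levels 9.64 to 10.24 (median 9.81). One VTA pool, unsusceptible pool 3 at 10.24, reached into the NAc range, and the change was -0.48 ± 0.07 (adjusted p = 3.83e-06). Scn11a, a pore known from pain-sensing neurons, read 7.29 to 7.59 in NAc and 7.51 to 7.79 in VTA, close to the median probe, and was higher in the VTA by 0.23 ± 0.05 (adjusted p = 0.000463). Scn8a, the pore of mature axon initial segments and nodes, showed -0.01 by its brightest probe (adjusted p = 0.937, 95% interval -0.12 to 0.10), while its second probe gave -0.27 (adjusted p = 0.00403). Scn3a, mainly an embryonic pore, and the dim Scn10a, a pore of sensory neurons, gave -0.04 and -0.12 and did not pass. The probe mean of Scn3a, 7.51, was also close to the median probe.

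All 3 sodium β genes on the array were lower in the VTA. Scn4b, whose protein supports resurgent current and is abundant in striatum, read 8.31 to 8.61 in NAc (median 8.47) and 7.96 to 8.20 in VTA (median 8.11). No VTA pool reached a NAc pool, and the change was -0.39 ± 0.05 (adjusted p = 1.27e-06). Scn3b read 10.13 to 10.43 in NAc and 9.72 to 10.06 in VTA, also without overlap, a change of -0.31 ± 0.06 (adjusted p = 8.18e-05) that did not pass under median scaling (adjusted p = 0.0853). Scn2b, whose product is disulphide-linked to the pore, differed by -0.20 ± 0.05 (adjusted p = 0.00492) with overlapping pools, at a median of 8.05 in NAc and 7.84 in VTA.

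The T-type calcium channel genes split between the structures. Cacna1g read 8.60 to 9.49 in NAc (median 9.04) and 10.63 to 12.01 in VTA (median 10.91). With 1.90 ± 0.13 log2 units or 3.74-fold it had the widest change of any member (adjusted p = 1.02e-11), and the pools were far apart. Its highest value, 12.01, belonged to VTA unsusceptible pool 3, and the other 8 VTA pools lay between 10.63 and 11.15. Cacna1h, the second T-type pore, had the opposite order. Its NAc levels were 10.39 to 10.87 (median 10.78) and its VTA levels 9.58 to 10.24 (median 9.96), with no overlap and a change of -0.77 ± 0.08, or 1.70-fold lower in VTA (adjusted p = 7.27e-09). The remaining T-type gene, the dim Cacna1i, gave -0.08 (adjusted p = 0.387).

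L-type pores were lower in the VTA where they passed. Cacna1c, the main L-type pore of brain, read 8.86 to 9.24 in NAc (median 9.12) and 8.15 to 9.17 in VTA (median 8.49). Of the VTA pools, unsusceptible pool 3 alone reached the NAc range, at 9.17, while the next highest was 8.65. The change was -0.57 ± 0.07, or 1.49-fold (adjusted p = 3.99e-07). Cacna1d, the L-type pore that opens at more negative voltages and serves pacemaking in dopamine neurons, was dim, with a change of -0.23 ± 0.06 (adjusted p = 0.00207). The retinal L-type gene Cacna1f gave 0.00.

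None of the 3 genes for the pores of transmitter release and dendritic entry passed. Cacna1a, the P/Q-type pore, gave -0.04 (95% interval -0.22 to 0.14). Cacna1b, the N-type pore, gave 0.04 (-0.10 to 0.17), and the dim R-type gene Cacna1e gave -0.03 (-0.19 to 0.12). The probe means of Cacna1a and Cacna1b, 7.88 and 7.73, lay not far above the median probe. Without a detection call, these intervals do not show equal expression.

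Auxiliary calcium channel genes held some of the clearest differences. Cacna2d3, an α2δ subunit, read 11.37 to 12.01 in NAc (median 11.81) and 9.89 to 10.70 in VTA (median 9.97). All VTA pools were below all NAc pools, with a change of -1.63 ± 0.09, or 3.10-fold lower in VTA (adjusted p = 1.69e-13). The VTA value nearest to the NAc was unsusceptible pool 3 at 10.70, against 9.89 to 10.25 in the other 8. Cacna2d1 and Cacna2d2, which encode the binding sites of gabapentin, had opposite signs and overlapping pools. Cacna2d1 had a median level of 10.89 in NAc and 10.57 in VTA, and Cacna2d2 of 11.56 and 11.77. Cacna2d1 differed by -0.35 ± 0.09 (adjusted p = 0.00367) and Cacna2d2 by 0.27 ± 0.07 (adjusted p = 0.00352). Neither passed when arrays were scaled by their medians in place of quantiles (adjusted p = 0.0963 and 0.129).

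All 3 intracellular β genes measured were lower in the VTA. Cacnb4, the subunit mutated in the lethargic mouse, read 8.66 to 8.94 in NAc (median 8.75) and 7.96 to 8.44 in VTA (median 8.17). Its pools did not overlap, and the change was -0.61 ± 0.05 (adjusted p = 1.36e-09). Cacnb1, also the β subunit of skeletal muscle, read 8.14 to 8.54 in NAc and 7.62 to 8.07 in VTA, again apart, with -0.49 ± 0.06 (adjusted p = 5.77e-07). Cacnb2 gave the smallest β difference, -0.21 ± 0.06 (adjusted p = 0.00859), and did not pass under median scaling (adjusted p = 0.296).

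Within the γ family, 2 genes were higher in the VTA, 2 were lower and 4 did not pass. The TARP genes with opposite signs were Cacng2, which encodes stargazin, and Cacng3. Cacng2 read 10.04 to 10.54 in NAc (median 10.39) and 11.08 to 11.42 in VTA (median 11.25), with no overlap and a change of 0.92 ± 0.07, or 1.89-fold (adjusted p = 1.97e-11). For Cacng3 the levels were 8.49 to 8.81 in NAc (median 8.64) and 7.56 to 8.09 in VTA (median 7.78), apart in the other direction, with -0.83 ± 0.07 or 1.78-fold (adjusted p = 4.52e-10). These TARPs therefore separated the structures in both directions at once. Cacng4, another TARP gene, differed by -0.55 ± 0.09 (adjusted p = 1.47e-05), and Cacng5, a TARP of a second class, by 0.42 ± 0.08 (adjusted p = 0.000194), both with overlapping pools. Cacng1, the γ subunit of skeletal muscle channels, gave -0.14 (adjusted p = 0.0869). The dim Cacng6, Cacng7 and Cacng8 gave -0.01, -0.04 and -0.08.

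HCN genes were higher in the VTA in 2 of 3 cases. Hcn2 read 12.16 to 12.46 in NAc (median 12.33) and 12.88 to 13.43 in VTA (median 13.25). Every VTA pool exceeded every NAc pool, by 0.93 ± 0.06 on average or 1.91-fold (adjusted p = 1.01e-12). Hcn3 read 8.51 to 8.87 in NAc (median 8.61) and 9.17 to 9.81 in VTA (median 9.67), likewise apart, with 0.97 ± 0.07 or 1.96-fold (adjusted p = 2.88e-11). The lowest VTA pool for both was unsusceptible pool 3, at 12.88 for Hcn2 and 9.17 for Hcn3. Hcn4, the main pacemaker channel gene of the heart, was dim and gave -0.05 (adjusted p = 0.706).

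**Figure D2:**
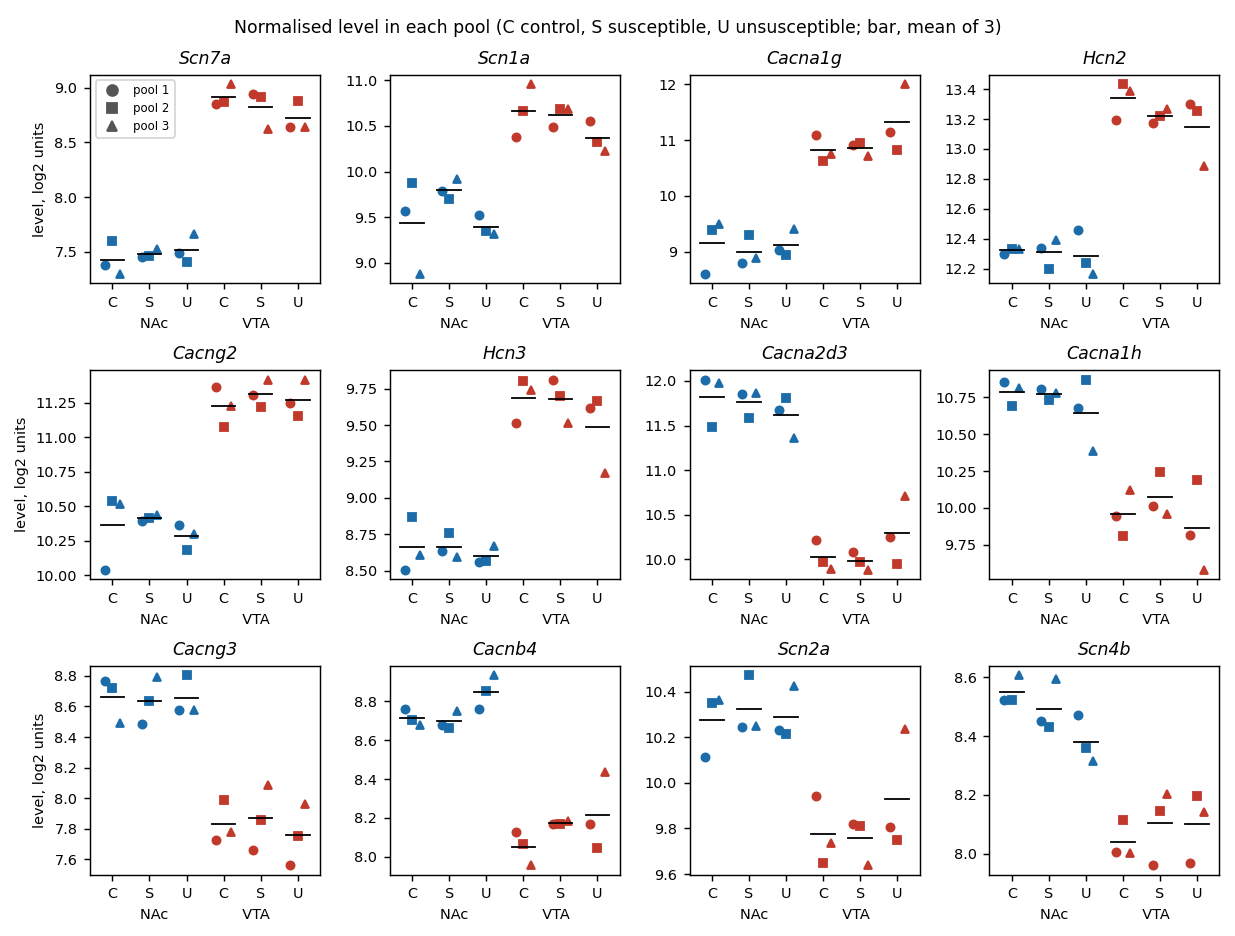
Normalised level in log2 units of 12 members in each of the 18 pools, by structure and behaviour group, with symbols for pool number and a bar at the mean of 3 pools. For Cacna1g the VTA pools lie between 10.63 and 12.01 and the NAc pools between 8.60 and 9.49, and for Cacna2d3 the order is turned, at 9.89 to 10.70 against 11.37 to 12.01.

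Probes of the same gene did not always show the same size of difference. Of the 23 called members, 15 had more than 1 probe, with 28 further probes. Of these, 9 passed the threshold, in 7 genes, and all 9 pointed the way of the brightest probe. Brightness tracked this: 7 of the 11 further probes above the median probe passed, and 2 of the 17 below it did. Cacna1g gave 1.90, 1.81 and 0.94 over its 3 probes and Scn3b gave -0.31, -0.26 and -0.20, all past the threshold. Scn2a gave -0.48, -0.48 and -0.08, and Hcn3 gave 0.97, 0.39 and 0.02. Scn7a gave 1.35 by the brightest probe and 0.24 by a dim one (adjusted p = 0.0185). Cacna1c passed on 1 probe of 7, and the other 6, all dim, lay between -0.02 and 0.07. Cacna1h, Cacna2d1 and Cacnb2 each had a further probe above the median probe that did not pass, with -0.14, -0.03 and -0.12.

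**Figure D3:**
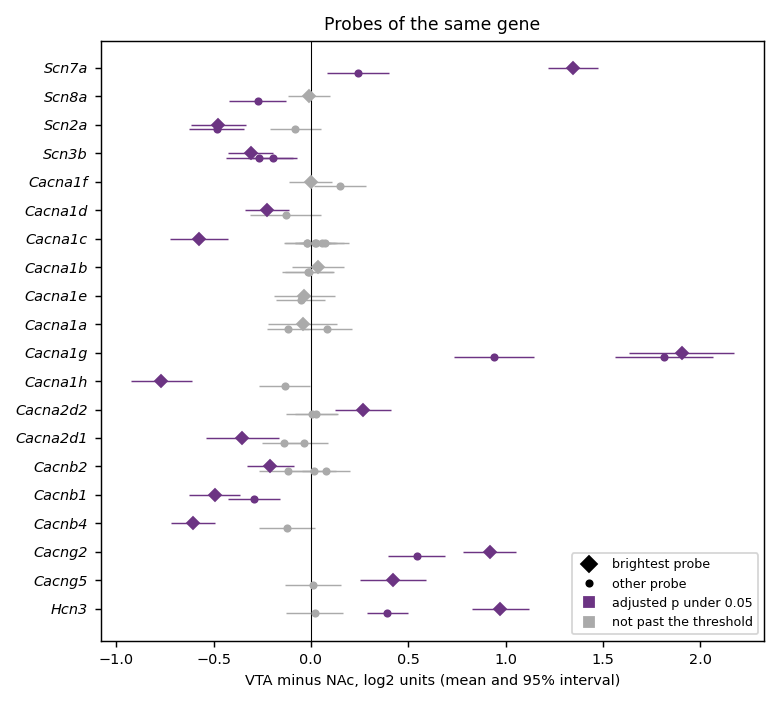
Difference between VTA and NAc in log2 units for every probe of the 20 members with more than 1 probe, as mean and 95% interval over 9 against 9 pools. Diamonds mark the brightest probe and circles the others, and purple marks those past the adjusted threshold, among them all 3 probes of Cacna1g at 1.90, 1.81 and 0.94.

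The structures were also compared in undefeated mice alone. Between 3 VTA and 3 NAc control pools, 19 of 36 members passed, 7 higher and 12 lower, which is 52.8% beside 19.4% of all probes and 29.4% of named genes. With arrays scaled by medians instead of quantiles, 9 passed, of which 6 were higher and 3 lower, or 25.0% beside 11.4% of all probes and 17.4% of named genes under the same scaling, so the excess of lower calls in control mice depended on the scaling.

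Other cell types differed between the structures along with these genes. All 4 measured oligodendrocyte markers were higher in the VTA, and their mean level was 13.04 to 13.34 in the NAc pools and 13.52 to 14.29 in the VTA pools. Of 4 astrocyte markers, 3 were higher and 1, Slc1a3, was lower, and the list mean was 11.77 to 12.13 in NAc and 12.35 to 12.75 in VTA. All 3 measured cortical excitatory markers were lower in the VTA, with mean levels of 8.72 to 10.43 in NAc and 7.32 to 8.39 in VTA, and both measured microglia markers were lower, at 9.62 to 9.90 and 9.20 to 9.40. The vesicular glutamate transporter gene Slc17a6 read 8.97 to 11.32 in NAc and 14.23 to 14.66 in VTA. Of 4 skeletal muscle markers, given beside the muscle-type subunits, Acta1 was lower in the VTA (-1.09, adjusted p = 4.96e-12), Mylpf was higher (0.47, adjusted p = 4.92e-07), and Ckm and Tnnt3 did not pass (adjusted p = 0.347 and 0.810). The mean of the 4 was at least 7.83 in NAc pools and 7.66 to 7.96 in VTA pools. The part of these cell types in the channel differences was not tested.

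Genes for proteins that bind, anchor or modulate these channels were counted as partners. Of 35 measured, 10 were higher and 12 were lower in the VTA. That is 62.9% called, beside 40.8% of named genes and 57.7% of those brighter than the median probe. Rem2, a small GTPase that dampens calcium channels through their β subunits, was lower by -2.87 ± 0.11 log2 units (adjusted p = 6.08e-17). Nedd4l, a ubiquitin ligase of sodium channels, had -1.71 ± 0.06 (adjusted p = 2.05e-17). The ryanodine receptor genes Ryr1 and Ryr3, which release calcium from stores, had -1.76 and -1.02. Pex5l encodes TRIP8b, the auxiliary protein of HCN channels, and was higher by 0.94 ± 0.08 (adjusted p = 5.01e-10), in the same direction as Hcn2 and Hcn3. Thbs2, whose thrombospondin family binds α2δ, had 1.11, Cachd1, an α2δ-like gene, had 0.91, and Cnih3, an AMPA receptor auxiliary like the TARPs, had -1.39, all past the threshold.

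Social defeat was examined within each structure, where the susceptible and the unsusceptible groups share the same control pools. No member passed the adjusted threshold in any of the 6 comparisons of behaviour groups. The share of all probes called was as low, at 0.0652% for susceptible against control and 0.00225% for unsusceptible against control and for susceptible against unsusceptible in the NAc. In the VTA it was 0.00225% for susceptible against control, 0.00674% for unsusceptible against control and 0% for susceptible against unsusceptible. The lowest adjusted p of any member was 0.166. At an unadjusted p under 0.05, members numbered 2, 4 and 3 in the NAc comparisons in that order, and 0, 3 and 4 in the VTA comparisons. Among named genes the corresponding shares were 8.35%, 13.1% and 3.95% in the NAc, and 3.15%, 8.01% and 5.72% in the VTA.

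The 95% intervals describe the size of these differences under quantile normalisation, given the spread between pools. They do not cover the choice of scaling, which turned the sign of some NAc differences given below. For the 9 dim members they do not bound a difference in expression. Over 36 members and 6 comparisons, the 216 differences had a median size of 0.0882 log2 units and reached at most 0.531, and 12 exceeded 0.3. All 216 of the 95% intervals lay within 1 log2 unit either side of 0. The spread of 3 pools of a group had a median SD of 0.131 and reached 0.613 for Cacna1g in unsusceptible VTA.

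In unsusceptible against control NAc, the α2δ genes Cacna2d1 and Cacna2d2 had the smallest p of the members, and the α2δ gene Cacna2d3 gave -0.21 (adjusted p = 0.663). Cacna2d1 read 11.21, 11.12 and 10.89 in the 3 control pools, 11.10, 11.12 and 10.83 in susceptible and 10.71, 10.36 and 10.56 in unsusceptible pools. The unsusceptible pools lay below all others of the NAc, by -0.53 ± 0.16 against control (limma adjusted p = 0.166) and with susceptible minus unsusceptible at 0.47 (adjusted p = 0.999). Under median scaling the difference from control had the opposite sign, 0.04. Cacna2d2 read 11.78, 11.68 and 11.67 in control and 11.21, 11.67 and 11.11 in unsusceptible pools, a difference of -0.38 ± 0.12 (adjusted p = 0.197) that turned to 0.20 under median scaling. Its susceptible minus unsusceptible difference, 0.20, likewise turned to -0.17. Without NAc unsusceptible pool 3, the array with the highest raw median, the differences from control were -0.54 for Cacna2d1 and -0.27 for Cacna2d2.

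Scn2b read 8.18, 8.35 and 8.11 in NAc control pools, 8.14, 7.99 and 8.01 in susceptible and 8.05, 7.84 and 7.90 in unsusceptible pools. All unsusceptible pools lay below all control pools, with -0.28 ± 0.09 (adjusted p = 0.211), and -0.05 under median scaling. Cacng1 gave -0.25 in unsusceptible (adjusted p = 0.320) and -0.22 in susceptible NAc against control (adjusted p = 0.563). Without NAc unsusceptible pool 3 the former was -0.16. Scn1a in the NAc read 9.79, 9.70 and 9.92 in susceptible pools, 0.36 above control on average (adjusted p = 0.577). That difference rested on control pool 3 at 8.88, and it was 0.08 without that pool. Against unsusceptible mice Scn1a differed by 0.41 (adjusted p = 0.999) in quantile-normalised values and by 0.09 under median scaling. Cacnb1 and Scn2b had -0.17 each in susceptible against control, and Cacng6 had -0.24 in susceptible against unsusceptible mice, none past the threshold.

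In the VTA the smallest p of both comparisons with unsusceptible mice belonged to Cacna1c. It read 8.44, 8.39 and 8.53 in control pools, 8.49, 8.28 and 8.15 in susceptible and 8.65, 8.60 and 9.17 in unsusceptible pools. The unsusceptible pools were above all other VTA pools, by 0.35 ± 0.12 against control (adjusted p = 0.548). Susceptible minus unsusceptible was -0.50 ± 0.12 (adjusted p = 0.871, unadjusted p = 0.000501). Without unsusceptible pool 3 these were 0.17 and -0.32, and without unsusceptible pool 2 the second was -0.60 and passed (adjusted p = 0.0467). The call for Cacna1c thus depended on which pool was left out. The mean of the 3 measured hypothalamic markers was 7.59, 7.45 and 7.59 in the control pools, 7.70, 7.71 and 9.13 in susceptible and 8.27, 8.40 and 9.48 in unsusceptible pools, so it too was higher in every unsusceptible than in every control pool. Susceptible pool 3, with a marker mean of 9.13, had the lowest Cacna1c level of the VTA pools, 8.15. Over the VTA pools Hcrt ran from 7.76 to 12.52, Avp from 6.97 to 7.70 and Oxt from 7.39 to 8.74. The part of these markers in the Cacna1c difference was not tested.

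Cacna1g read 11.09, 10.63 and 10.75 in VTA control pools, 10.91, 10.94 and 10.71 in susceptible and 11.15, 10.82 and 12.01 in unsusceptible pools. Its differences, 0.50 for unsusceptible minus control and -0.47 for susceptible minus unsusceptible, were 0.16 and -0.13 without pool 3 and 0.75 and -0.72 without pool 2, and none passed. Hcn2 read 13.19, 13.43 and 13.39 in control and 13.30, 13.25 and 12.88 in unsusceptible pools, and its difference of -0.19 was -0.06 without pool 3. That pool held the lowest Hcn2 level of the VTA. Cacng7, a dim TARP gene, differed by -0.33 in unsusceptible (adjusted p = 0.643) and -0.19 in susceptible mice against control. Susceptible mice also had 0.20 for Cacna1b, -0.13 for Cacng8 and 0.12 for Cacnb4 against control, each with an adjusted p of 1. Against unsusceptible mice they had 0.23 for Cacng6 and 0.18 for Scn11a (adjusted p = 0.897 for both).

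**Figure D4:**
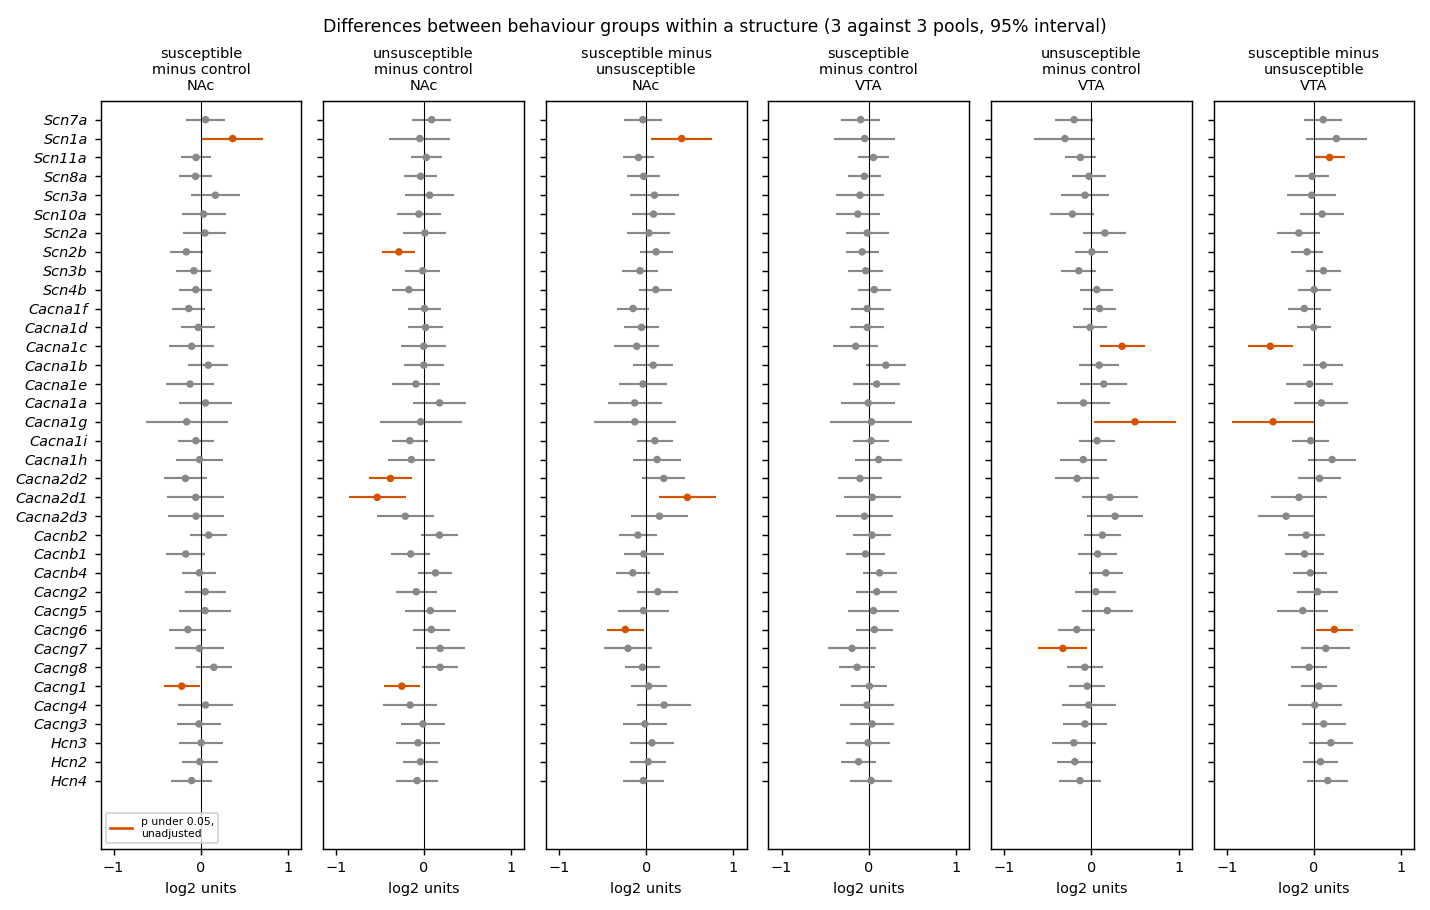
Difference between behaviour groups for the 36 members in log2 units, 3 against 3 pools with 95% intervals, for 3 comparisons in each structure. Orange marks an unadjusted p under 0.05, which applies to 16 of the 216 differences, or 7.41%, and none passed the adjusted threshold.

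The effect of defeat was also compared between the structures. Neither interaction called a member, and 0% of all probes were called in either. For unsusceptible against control mice, the VTA effect minus the NAc effect was 0.74 ± 0.22 for Cacna2d1 (adjusted p = 0.282) and -0.52 ± 0.19 for Cacng7 (adjusted p = 0.351), and the former was 0.05 under median scaling. For susceptible against control mice, Cacng8 gave -0.28 (adjusted p = 0.797) and Scn1a gave -0.41 (adjusted p = 0.836). The Scn1a value was -0.13 without NAc control pool 3. At an unadjusted p under 0.05 there were 4 members for the former and 0 for the latter, beside 12.4% and 6.15% of named genes. No partner gene passed in any comparison of behaviour groups either.

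Several of these values turned on VTA unsusceptible pool 3. Among the 23 members that separated the structures, it was the VTA pool nearest to the NAc levels for 11, or 47.8%, and over all called named genes it was nearest for 32.7%. The 11 were Cacna1c, Cacna2d2, Cacna2d3, Cacnb1, Cacnb2, Cacnb4, Cacng4, Hcn2, Hcn3, Scn1a and Scn2a. For Cacna1g, Cacna1h and Cacng5 it was instead the VTA pool farthest from the NAc, at 12.01, 9.58 and 9.39. The count of 23 called members was 24 without this pool, so the structure difference did not rest on it. The part of its low dopamine and high hypothalamic marker levels in these values was not tested.

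**Figure D5:**
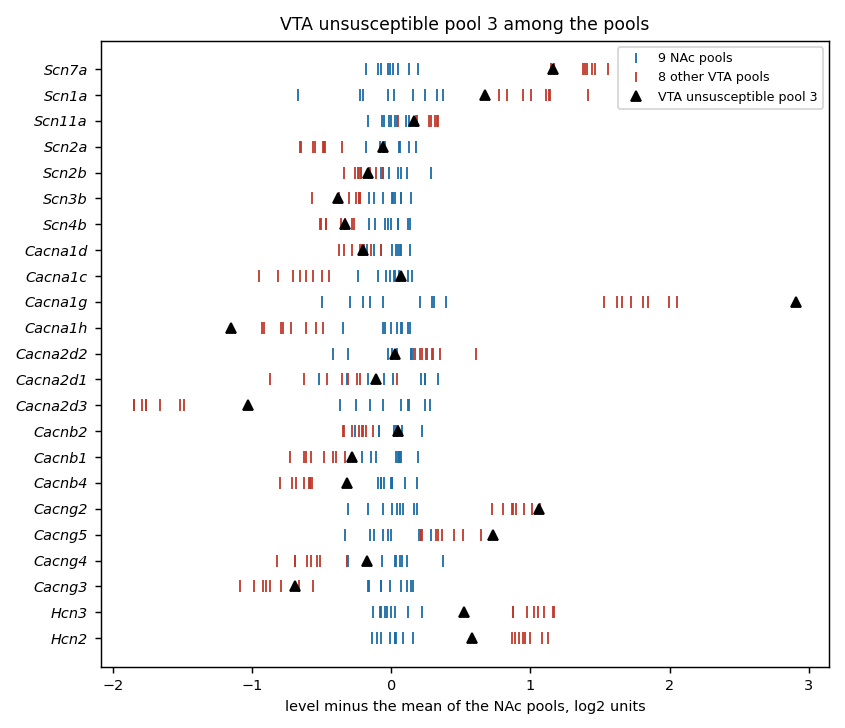
Level of the 23 called members in each pool, as the difference from the mean of the 9 NAc pools in log2 units, with VTA unsusceptible pool 3 as a triangle. The triangle lies toward the NAc for Hcn2 and Hcn3 and beyond the other 8 VTA pools for Cacna1g.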

How the data were processed

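RNA of pooled mouse tissue was amplified linearly, labelled with biotin and hybridised to 18 one-colour arrays, per the labels' protocols. The tables deposited by the authors hold 1 linear intensity per probe, and no background column or detection p-value was used. The scanner software and any background step are not given in the sources. The submitters' processing notes list affy, with no version. The authors' normalised table of the series, also intensity, served as an alternative. Of 44547 probes, 42 were empty and 44505 were tested.

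Intensities as deposited were taken to log2 and quantile normalised. One limma 3.58.1 model (R 4.3.3) with 6 group means and an intensity trend was fitted to all arrays, with 12 residual degrees of freedom, two-sided tests and Benjamini-Hochberg adjustment over all probes of a contrast at 0.05. The fit was tested on simulated arrays in which set changes had been planted. Gene names come from the platform table, and all 36 member symbols matched RefSeq by identifier. No background was subtracted here, and if none was subtracted before deposit, a log2 change understates that of a dim probe. The number of arrays limits the precision.

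Members and lists were chosen with earlier results of these data known. All members past the threshold were named for VTA against NAc, the 4 with smallest p in each behaviour comparison and 2 in each interaction, and up to 8 partner genes by size of change. Of 45 partner symbols 35 were measured, and of 56 cell marker genes 47. No list test was run. Alternatives were median scaling, the authors' table, an offset of 50, array weights, no trend, a filter on dim probes, other choices of probe or arrays, a replicate block and leaving out single arrays. The promoter windows printed are of the members with the strongest change each way and 1 listed start, less 1 that is not reported here.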

Additional observations from a re-analysis of the deposited data

Results flagged for a closer look

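For each member the 9 pools of a structure were searched for a highest or lowest pool whose gap to its nearest neighbour was wide for the range of the 9 (Dixon's test). Of 72 sets, 11 held such a pool. The nominal rate of the test, 5% of sets, assumes pools of 1 kind, while these came from 3 behaviour groups. All sets also share the same arrays, and the share over all named genes is not given here. The count is therefore no result about the members. In 7 of the 11 the pool was VTA unsusceptible pool 3. It was the highest VTA pool for Cacna1c at 9.17 (next 8.65), Cacna1g at 12.01 (next 11.15), Cacna2d3 at 10.70 (next 10.25), Cacnb4 at 8.44 (next 8.19) and Scn2a at 10.24 (next 9.94). For Hcn2 it was the lowest at 12.88 (next 13.18), and for Hcn3 at 9.17 (next 9.51). The 4 other cases involved different pools. Cacna1e was lowest in VTA control pool 1 at 6.71 (next 7.12), and Scn3b in VTA unsusceptible pool 1 at 9.72 (next 9.90). In the NAc, Cacna1h was lowest in unsusceptible pool 3 at 10.39 (next 10.68), and the dim Scn10a in unsusceptible pool 1 at 6.91 (next 7.14).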

How the results depend on the processing

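The members called between VTA and NAc numbered 19 to 24 over the settings run for that comparison, with 19 under median scaling. They numbered 23 to 24 when each of the 18 arrays was left out. Under median scaling the member share of 52.8% stood beside 19.4% of all probes and 27.2% of named genes. In the main fit the latter shares were 28.0% and 40.8%, so fewer calls under median scaling were not particular to the members. Choosing the brightest probe by log2 mean picked the same probes, and taking any probe of a gene could only keep or add calls. Neither of these settings could therefore show a loss of calls. Of the 23, 19 kept their call in every setting that included their probe. Scn3b (adjusted p = 0.0853), Cacna2d1, Cacna2d2 and Cacnb2 lost their call under median scaling alone. The filter on dim probes left out Cacna1d, so its call was not recomputed there. In control mice the count of 19 became 9 under median scaling, 15 to 17 without single arrays and 17 without NAc control 3, NAc unsusceptible 3 and VTA unsusceptible 3 together. Median scaling reversed the NAc differences of Cacna2d1 (0.045) and Cacna2d2 (0.20) for unsusceptible minus control, and of Cacna2d2 (-0.17) for susceptible minus unsusceptible. The cause was not tested. Counts between behaviour groups stayed at 0 in all settings run, except for susceptible against unsusceptible VTA, with 0 to 1 without single arrays. The call was Cacna1c without VTA unsusceptible replicate 2. Pool numbers were not treated as pairs in the main fit. Same-numbered pools correlated at -0.045 to 0.198 over 45 pairs, and 9 exceeded 0.1. Differently numbered pools were not compared, and the sample titles do not say whether pools share animals. Whether pool numbers pair the samples was therefore not settled. With a replicate block 23 members were called between the structures, 19 in control mice and 0 between behaviour groups. The dim probes, 9 of 36 members, limit what could be detected for those genes.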
